A study of Drosophila melanogaster with 12 samples.

Results

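The gustatory receptor (Gr) genes of Drosophila melanogaster were taken as every row of the raw count table whose symbol is Gr followed by a number and a lower-case letter, which gave 60 of 23793 rows. The counts come from RNA-seq of heads cut from frozen male flies aged 3 days, with 50 heads pooled per library, 4 groups, and 3 libraries per group. Throughout, the nSyb promoter, which is active in neurons throughout the nervous system, drove a hairpin RNA (IR). The hairpin matched mCherry in NTC IR-1 (nSyb>mCherry IR), dYEATS2 in dYEATS2-IR (nSyb>dYEATS2 IR), Luciferase in NTC IR-2 (nSyb>Luciferase IR) and dENL/AF9 in dENL/AF9-IR (nSyb>dENL/AF9 IR). mCherry and Luciferase are not fly genes and served as non-targeting controls. A whole head holds muscle, fat body, glia and cuticle beside neurons, so a hairpin made in neurons acts on part of the RNA measured. The titles of the NTC IR-2 and dENL/AF9-IR libraries carry the word young, although an age of 3 days is given for all 12.

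Gr genes encode ligand-gated cation channels of the taste neurons, each of which sits with a few others under a bristle of the proboscis, the pharynx, the legs or the wing margin. Sugar neurons carry combinations of sugar receptors, bitter neurons carry a common set of co-receptors plus receptors particular to a bristle class, and a pair of family members detects carbon dioxide in the antenna. Few cells of a head express any one of these genes, and those of the legs were not sampled.

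Total counts ran from 30298251 to 54132559 per library. The deposited normalized table carries the same libraries under exchanged group names: it calls the NTC IR-1 libraries dENL/AF9-IR, the dYEATS2-IR libraries NTC IR-2, the NTC IR-2 libraries NTC IR-1 and the dENL/AF9-IR libraries dYEATS2-IR. Which naming is right was not settled here, and a group name below means the libraries that carry it in the count table. Values of the targeted genes are given under those names only. By these names neither targeted gene was called lower in its knockdown: D12 (dYEATS2) had 8.83 ± 0.281 CPM (SD, n = 3) in dYEATS2-IR and 9.05 ± 0.966 in NTC IR-1 (FDR 0.919, edgeR), and ear (dENL/AF9) had 40.6 ± 2.92 in dENL/AF9-IR and 42.0 ± 7.36 in NTC IR-2 (FDR 1, edgeR). CPM is the count scaled to a library total of 1000000, with TMM factors applied. All 7 neuronal, all 7 photoreceptor and all 5 glial markers had more than 3 counts in each library. Summed CPM of 7 fat body markers was 2421 to 3196 in NTC IR-1 and 309 to 1048 in the other groups. Among them are the yolk protein genes, which are expressed mainly in females: Yp1 had 587 to 843 CPM in the NTC IR-1 libraries and 0 to 0.488 elsewhere, Yp2 had 216 to 366 against 0.183 to 1.12, and Yp3 had 451 to 674 against 10.9 to 34.7. The ovary genes Cp15 and osk had counts in some NTC IR-1 libraries and none elsewhere, but other ovary genes had counts in each group. Mean CPM of Cp19 was 0.131 in NTC IR-1, 0.175 in dYEATS2-IR, 0.223 in NTC IR-2 and 0.194 in dENL/AF9-IR. For Cp18 the means were 1.32, 0.974, 1.03 and 0.778 in the same order. All flies are labelled male, the source of these transcripts was not tested, and each comparison with NTC IR-1 rests on those libraries.

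Transcripts of the Gr family were scarce in these heads. All 60 rows together held 287 to 640 counts per library, which is 8.79 to 13.6 CPM. Of the 60 genes, 13 had no count in any of the 12 libraries, and another 10 had fewer than 10 counts over all 12. The silent rows were Gr9a, Gr10b, Gr22a, Gr22c, Gr22d, Gr47a, Gr57a, Gr58b, Gr59c, Gr64b, Gr68a, Gr93c and Gr98c. Gr68a is known for a role in male courtship, and Gr47a and Gr59c for bitter taste. A count of 0 allows a level of up to that of 3 counts, which is 0.0615 to 0.0883 CPM as a group mean, for counting error only.

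Just 6 Gr genes had more than 3 counts in each of the 12 libraries, against 46.9% of all rows. They were Gr28b, Gr61a, Gr32a, Gr64c, Gr10a and Gr63a, with 721, 608, 560, 506, 491 and 484 counts in total. Of the odorant receptor (Or) genes 7 of 59 (11.9%) met the same limit, and of the ionotropic receptor (Ir) genes 9 of 66 (13.6%). Summed over the family, Or genes held 19.7 to 26.9 CPM per library and Ir genes 25.5 to 45.0, so in each library both families summed to more than the Gr genes. Members of a family are not replicates, and these shares are given without a test.

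The low end of the table was uneven. Of the 720 Gr values (60 genes in 12 libraries), 464 (64.4%) were 0, 3 were 1, 7 were 2, 34 were 3, 8 were 4, 13 were 5 and 26 were 6. Over all rows 35.1% of the values were 0, and 9281 were 1, 6420 were 2, 8254 were 3 and 3506 were 6. Values of 1 were thus rarer than values of 3 or of 6 among Gr genes, but not over all rows. How single reads were treated in counting is not given in the sources used here. A count of 0 is therefore read here as not detected.

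**Figure D1:**
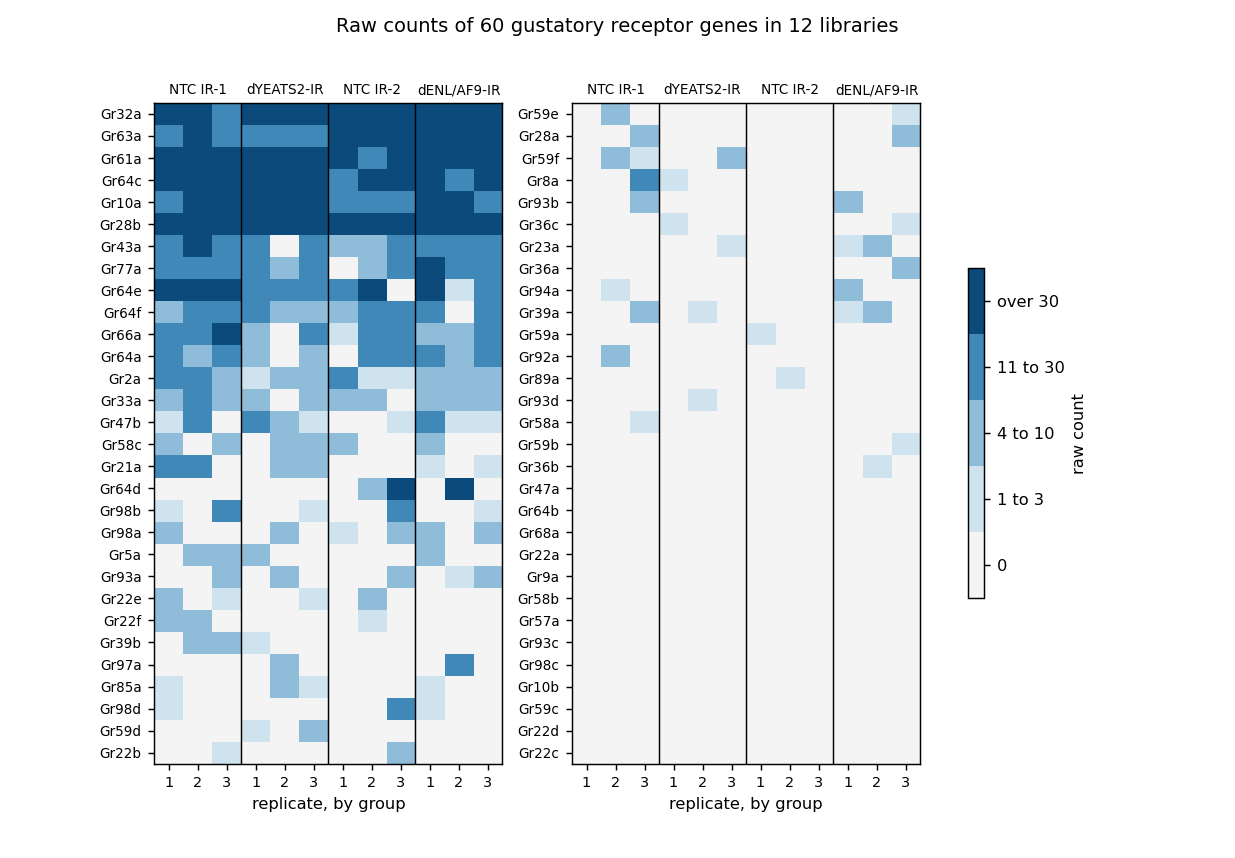
Raw counts of the 60 Gr genes (rows, ordered by mean level per kb of exons) in the 12 libraries (columns, 3 replicates per group). Darker cells hold more counts in steps from 0 to over 30: 6 genes have more than 3 counts in each library, and 13 genes are at 0 in each.

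By the annotation BDGP6.54, 9 of the 11 Gr genes on 3L had a count in some library, as did 14 of 17 on 2L, 4 of 6 on X, 9 of 13 on 2R and 11 of 13 on 3R. The filter on low counts that precedes the tests was passed by 9 genes on 3L, 5 of them in the Gr64 cluster, 3 on 2L, 2 on X, 1 on 2R and 0 on 3R. On 3L the 6 genes Gr64a to Gr64f lie side by side within 10.8 kb (3L, 4026769 to 4037575, plus strand) and held 1167 counts in all.

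Levels of different genes were compared as CPM per kb of merged exons. Merged exons pool all annotated transcripts, so genes with several transcripts may rank too low. Averaged over the 12 libraries, Gr32a had the highest level at 0.712 ± 0.200 CPM per kb (SD, n = 12), followed by Gr63a at 0.669 ± 0.233 and Gr61a at 0.657 ± 0.224. These SDs include differences between the 4 groups, and genes were not tested against each other. A second tier held Gr64c at 0.368 ± 0.101, Gr10a at 0.357 ± 0.133 and Gr28b at 0.340 ± 0.0921. Gr43a followed at 0.257 ± 0.121 and Gr77a at 0.252 ± 0.150. Below them the means declined without a gap, from Gr64e at 0.218 through Gr64f at 0.214, Gr66a at 0.202 and Gr64a at 0.159 to Gr2a at 0.137, and the other 47 genes lay lower still. The order differed between groups: Gr61a had the highest mean in NTC IR-1 (0.840 CPM per kb), Gr32a in dYEATS2-IR (0.887), and Gr63a in NTC IR-2 (0.819) and dENL/AF9-IR (0.873). In NTC IR-1 Gr43a, at 0.404, was above Gr28b, at 0.375, and Gr10a, at 0.299. The rows Gr64c, Gr10a and Gr64e share all or nearly all exon bases with Gr64b, Or10a and Gr64d, so their levels are not those of single genes.

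**Figure D2:**
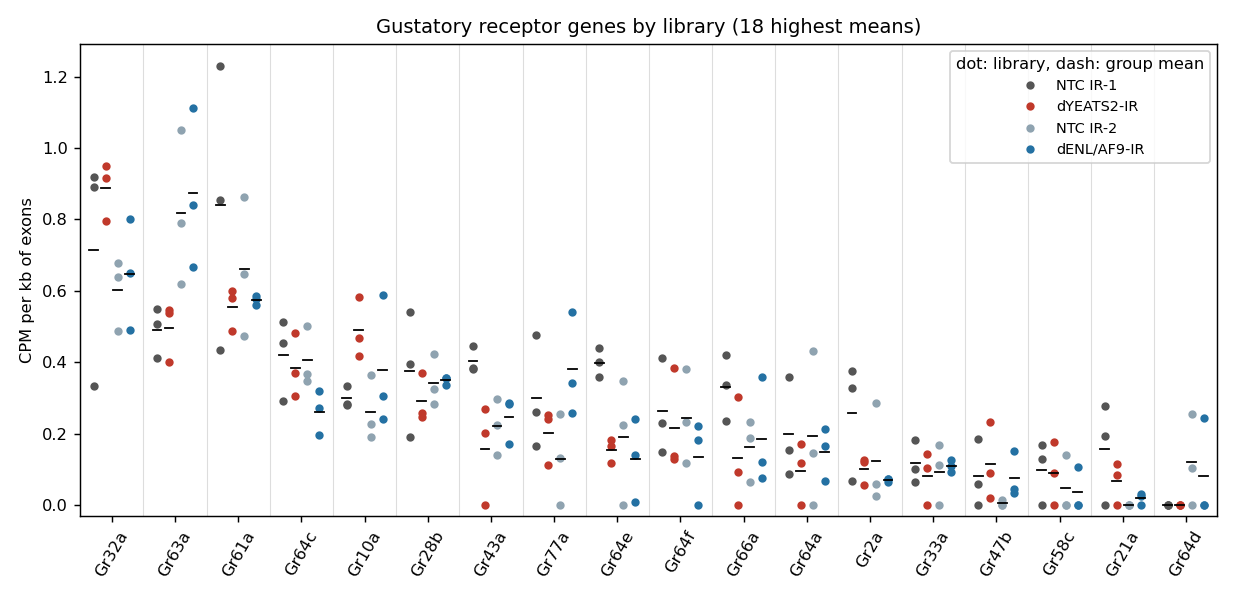
CPM per kb of merged exons of the 18 Gr genes with the highest means, by group. Each dot is a library and each dash a group mean (n = 3). Gr32a, Gr63a and Gr61a lead with means of 0.712, 0.669 and 0.657, and most genes right of Gr28b have at least 1 library at 0.

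Which genes stood above background was judged against genes made in the testis, male accessory gland, ovary or larval salivary gland and not known from the adult head. A Gr gene counted as above background in a group when each of its 3 libraries had more than 3 counts and the mean CPM per kb exceeded the 90th percentile of the 49 background genes in that group. By this rule 7 Gr genes were above background in at least 1 group. They numbered 5 in NTC IR-2 (Gr28b, Gr32a, Gr61a, Gr63a and Gr64c), 6 in dENL/AF9-IR (Gr10a, Gr28b, Gr32a, Gr61a, Gr63a and Gr77a), 0 in NTC IR-1 and 0 in dYEATS2-IR. Counts listed under Gr64c may be those of Gr64b, and counts under Gr10a those of Or10a, since the exons are shared.

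In the 2 groups without any such gene the background was higher: the 90th percentile was 4.38 CPM per kb in NTC IR-1 and 1.75 in dYEATS2-IR, against 0.291 in NTC IR-2 and 0.328 in dENL/AF9-IR. The 25 testis and accessory gland genes of the list summed to 18.04 to 44.6 CPM in the NTC IR-1 libraries, 6.93 to 17.4 in dYEATS2-IR, 0.0915 to 3.33 in NTC IR-2 and 2.93 to 5.34 in dENL/AF9-IR. The 24 ovary and larval gland genes summed to 1.65 to 4.55 CPM over all 12 libraries. The seminal peptide gene Mst57Db alone had 19.2 CPM per kb in NTC IR-1, far above Gr61a, the highest Gr gene of that group, at 0.840. Against the ovary and larval gland genes alone, a choice made after these values were seen, 10 Gr genes passed in at least 1 group, 8 in NTC IR-1, 6 in dYEATS2-IR, 5 in NTC IR-2 and 7 in dENL/AF9-IR, and 5 passed in all 4.

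**Figure D3:**
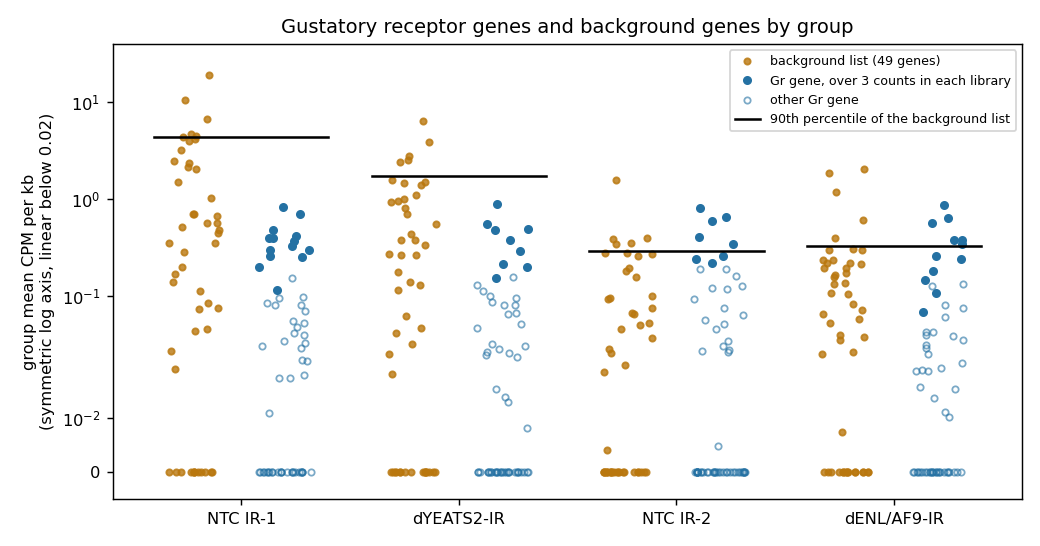
Group mean CPM per kb (symmetric log axis, linear below 0.02) of the 49 background genes and the 60 Gr genes in each group. Filled blue dots are Gr genes with more than 3 counts in each library of the group, and the black line is the 90th percentile of the background genes, at 4.38, 1.75, 0.291 and 0.328 from left to right.

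The genes nearest the line were few. In NTC IR-2 Gr28b was the lowest gene above it at 0.343 CPM per kb and Gr10a the highest below it at 0.261. In dENL/AF9-IR Gr28b was again lowest above it at 0.349, and Gr64c was the highest below it at 0.261. With the 95th percentile 4 genes passed (Gr32a, Gr61a, Gr63a and Gr64c), all in NTC IR-2, and 0 in dENL/AF9-IR. Without replicate 1 of each group the count was 12, with 12 in NTC IR-2 and 4 in dENL/AF9-IR. It was 5 without replicate 2 (3 and 5) and 6 without replicate 3 (4 and 5). Without division by length, 5 genes passed in dYEATS2-IR, 8 in NTC IR-2 and 8 in dENL/AF9-IR.

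Among the 8 sugar receptors, Gr61a, which takes part in the response to glucose, lies on the plus strand of 3L (841451 to 843701) and had counts of 60, 108 and 39 for NTC IR-1 and 31, 35 and 40 for dYEATS2-IR. Its counts were 47, 29 and 61 for NTC IR-2 and 58, 54 and 46 for dENL/AF9-IR. In CPM the groups overlapped, and the widest spread was within NTC IR-1, at 1.57 ± 0.744 CPM (SD, n = 3), against 1.07 ± 0.0251 in dENL/AF9-IR.

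Gr64c, another sugar receptor of the cluster (3L, 4028605 to 4032032), had counts of 55, 61 and 40 for NTC IR-1, 47, 34 and 31 for dYEATS2-IR, 29, 47 and 53 for NTC IR-2 and 41, 28 and 40 for dENL/AF9-IR. The 3 dENL/AF9-IR libraries, at 0.558 to 0.908 CPM, lay below the 3 of NTC IR-2, at 0.995 to 1.43. In BDGP6.54 the merged exons of Gr64b and Gr64c are the same 2858 bases, and Gr64b was at 0 in each library, so the counts listed under Gr64c cannot be assigned to either gene.

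A comparable case was Gr64d and Gr64e, which share 97.3% and 99.1% of their exon bases. Gr64e (3L, 4032141 to 4035703), required for the taste of glycerol, had counts of 39, 60 and 56 for NTC IR-1, 18, 11 and 17 for dYEATS2-IR, 19, 33 and 0 for NTC IR-2 and 37, 1 and 18 for dENL/AF9-IR. Gr64d had a count in 3 libraries, 10 and 38 in NTC IR-2 replicates 2 and 3 and 36 in dENL/AF9-IR replicate 2. The 2 libraries in which Gr64e was at 0 or 1 were those in which Gr64d had 38 and 36. Summed, the pair had counts of 39, 60 and 56 for NTC IR-1, 18, 11 and 17 for dYEATS2-IR, 19, 43 and 38 for NTC IR-2 and 37, 37 and 18 for dENL/AF9-IR, with a count in each library.

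**Figure D4:**
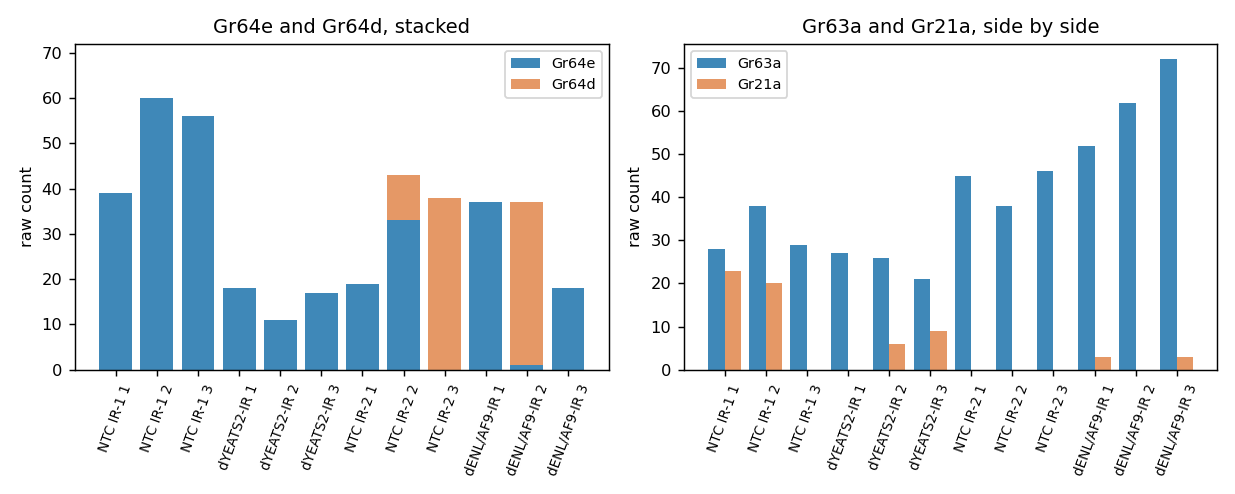
Raw counts by library. Left, Gr64e and Gr64d stacked: in NTC IR-2 replicate 3 and dENL/AF9-IR replicate 2 the bar is almost wholly Gr64d, with 38 and 36 counts. Right, Gr63a and Gr21a side by side: Gr63a has 21 to 72 counts in each library, and Gr21a is at 0 in 6 of 12.

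The other sugar receptors were lower. Gr64f, a co-receptor needed for most sugars, had 0 to 28 counts and was missing from dENL/AF9-IR replicate 2, and Gr64a, a receptor for sucrose and maltose, had 0 to 21 and was at 0 in 2 libraries. Gr5a, the trehalose receptor, had 29 counts in 4 libraries, and 74.4% of its exon bases are shared with an antisense RNA. Summed over all 8 genes the sugar receptors held 3.51 to 5.77 CPM in NTC IR-1, 2.66 to 3.78 in dYEATS2-IR, 3.43 to 4.82 in NTC IR-2 and 2.47 to 3.19 in dENL/AF9-IR. The groups NTC IR-2 and dENL/AF9-IR did not overlap in this sum, and the sum was not tested.

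Gr43a (2R, 7390869 to 7393161, minus strand), the fructose receptor, acts in taste neurons and as a nutrient sensor in the brain. Its counts were 22, 32 and 28 for NTC IR-1, 14, 0 and 11 for dYEATS2-IR, 10, 7 and 23 for NTC IR-2 and 23, 13 and 19 for dENL/AF9-IR. The NTC IR-1 libraries, at 0.616 ± 0.0559 CPM (SD, n = 3), lay above each library of the other 3 groups. Of its exon bases 10.2% overlap Dhx15 on the opposite strand.

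The carbon dioxide receptor of the antenna is formed by Gr21a and Gr63a together, and loss of either ends the response. Gr21a lies on 2L (780482 to 782885, plus strand) and Gr63a on 3L (3894999 to 3896603, minus strand), and their counts were far apart. Gr63a had 28, 38 and 29 counts in NTC IR-1, 27, 26 and 21 for dYEATS2-IR, 45, 38 and 46 for NTC IR-2 and 52, 62 and 72 for dENL/AF9-IR. Gr21a had 23, 20 and 0 for NTC IR-1, 0, 6 and 9 for dYEATS2-IR, 0 in each NTC IR-2 library and 3, 0 and 3 for dENL/AF9-IR. Per kb of exons Gr63a averaged 0.669 CPM and Gr21a 0.0601. In the libraries labelled NTC IR-2 or dENL/AF9-IR, which had 38 to 72 counts of Gr63a, Gr21a was at 0 or 3.

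Gr10a (X, 11413467 to 11417422, minus strand) is expressed with the odorant receptor Or10a in antennal neurons that neighbour the carbon dioxide neurons. The exon bases of both genes are the same in BDGP6.54, Or10a was at 0 throughout, and the counts listed under Gr10a cannot be assigned to either. They were 30, 44 and 38 for NTC IR-1, 45, 53 and 42 for dYEATS2-IR, 30, 21 and 27 for NTC IR-2 and 88, 43 and 30 for dENL/AF9-IR. The dYEATS2-IR libraries, at 1.38 ± 0.237 CPM (SD, n = 3), lay above those of NTC IR-1, at 0.842 ± 0.0818. In dENL/AF9-IR replicate 1 was highest, at 1.66 CPM, and the group overlapped each of the others.

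Of the 5 co-receptors common to bitter neurons, Gr32a (2L, 11114014 to 11115823, plus strand) was the most abundant. It is also required in males for the response to inhibitory contact pheromones. Its counts were 56, 68 and 26 for NTC IR-1, 44, 48 and 55 for dYEATS2-IR, 32, 34 and 40 for NTC IR-2 and 69, 53 and 35 for dENL/AF9-IR, and NTC IR-1 spanned from the lowest CPM of all 12 libraries, 0.541, to 1.49. Of its exon bases 10.1% overlap CG6230 on the opposite strand.

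Gr66a and Gr33a, which are found in nearly every bitter neuron of the proboscis, were lower than Gr32a. Gr66a had counts of 14, 25 and 32 for NTC IR-1, 5, 0 and 17 for dYEATS2-IR, 3, 12 and 15 for NTC IR-2 and 10, 6 and 25 for dENL/AF9-IR. Gr33a had 0 to 14 counts, with 80 in total. The other common members, Gr39a and Gr89a, had 18 and 3 counts over all 12 libraries. The 6 other bitter receptors listed (Gr8a, Gr22e, Gr47a, Gr59c, Gr93a and Gr98b) had no group in which each library exceeded 3 counts, and their sum was 0 to 0.686 CPM. Gr93a, needed for the response to caffeine, had 25 counts in all, and Gr8a and Gr98b, which take part in the response to L-canavanine, had 14 and 33.

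Gr28b (2L, 7454826 to 7462247, minus strand), whose isoforms are known for roles beyond taste, warmth sensing among them, had the most counts of the family. They were 63, 38 and 111 for NTC IR-1, 36, 51 and 39 for dYEATS2-IR, 35, 59 and 70 for NTC IR-2 and 76, 76 and 67 for dENL/AF9-IR. With 4.26 kb of merged exons over 5 annotated transcripts it ranked only sixth per kb. The merged length can exceed that of any 1 transcript, so this rank may be too low. The spread was largest in NTC IR-1, at 0.808 to 2.31 CPM, and the 4 groups overlapped. Its neighbour Gr28a had 14 counts in all.

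Of the 36 genes outside these roles, Gr77a and Gr2a passed the filter beside Gr10a. Gr77a (3L, 20737569 to 20739430, minus strand) had counts of 25, 17 and 11 for NTC IR-1, 12, 5 and 12 for dYEATS2-IR, 0, 6 and 18 for NTC IR-2 and 40, 18 and 21 for dENL/AF9-IR. The dENL/AF9-IR libraries, at 0.359 to 0.755 CPM, lay just above the highest of NTC IR-2, at 0.356. Gr2a had 2 to 24 counts, and 75.9% of its exon bases lie in exons of futsch on the same strand, a neuronal cytoskeletal gene with 473954 counts.

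Differences between groups were tested with edgeR's quasi-likelihood F test on all 12 libraries, with p-values adjusted by Benjamini and Hochberg (FDR) over the 12661 rows that passed the filter, 15 of them Gr genes. The other 45 had at most 80 counts in all. In a head, fewer taste neurons and less RNA per neuron cannot be told apart, and whether replicates came from separate crosses is not given, so the tests measure the spread between these pools of heads.

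No Gr gene was called at an FDR below 0.05 in any of the 5 tests. For any difference among the 4 groups, which does not depend on the names, 0 of 15 Gr genes were called, against 19.6% of all rows, and 1 (Gr63a) had an unadjusted p under 0.05, against 36.6%. In dYEATS2-IR against NTC IR-1, 0 were called, against 4.77% of all rows, and 0 had an unadjusted p under 0.05, against 21.5%. With dENL/AF9-IR set against its control NTC IR-2, both counts were 0, against 0% and 5.22%. Between the controls 0 were called, against 19.5%, and 2 (Gr63a and Gr21a) had an unadjusted p under 0.05, against 35%. For the difference between both knockdown effects both counts were 0, against 0.932% and 14.2%. DESeq2 called 1 Gr gene, Gr21a between the controls (FDR 0.0283), and 0 in its other 4 tests.

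The precision of these tests differed between genes. For the 6 genes with more than 3 counts in each library the SE of the log2 fold change was 0.303 to 0.382 in the 3 comparisons between groups. For the other 9 it was at least 0.712. The intervals below give the changes these data leave possible, and a p above the threshold does not show that levels were alike.

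The libraries labelled dYEATS2-IR were compared with those labelled NTC IR-1. Gr10a had a log2 fold change of 0.71 (SE 0.374, 95% interval -0.11 to 1.53, FDR 0.301 in edgeR's test). For Gr61a it was -0.59 (interval -1.39 to 0.20), for Gr28b -0.36 (-1.14 to 0.41), for Gr32a 0.32 (-0.49 to 1.12), for Gr64c -0.12 (-0.83 to 0.58) and for Gr63a 0.02 (-0.67 to 0.71). Gr43a and Gr64e had wider intervals, -2.96 to 0.27 around -1.34 and -3.65 to 0.92 around -1.36.

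The libraries of both groups did not overlap for 3 of the 15 genes (Gr10a higher, Gr43a and Gr64e lower), against 29.3% of all rows tested. The median log2 fold change of the tested Gr genes was -0.55, or -0.57 over the 14 left without Gr64d, which was at 0 in both groups, and that of all rows was -0.02. Members could pass the filter through 1 group alone, so this median describes the tested genes and not the family. With Gr64d and Gr64e summed into 1 row, an alternative added after the counts were seen, the log2 fold change was -1.36 with an SE of 0.369 in place of 1.04, and the FDR was 0.0597 in edgeR's test.

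The libraries labelled dENL/AF9-IR were compared with those labelled NTC IR-2. Gr77a had a log2 fold change of 1.46 (SE 0.778, 95% interval -0.25 to 3.16, FDR 1 in edgeR's test), and Gr64c one of -0.63 (interval -1.34 to 0.08). Gr10a followed at 0.55 (-0.28 to 1.38), and without dENL/AF9-IR replicate 1 its value was 0.08. Gr61a was at -0.20 (-0.99 to 0.59), Gr32a at 0.12 (-0.70 to 0.93), Gr63a at 0.10 (-0.57 to 0.76) and Gr28b at 0.03 (-0.74 to 0.80). Gr77a and Gr64c were the 2 genes whose libraries did not overlap, 1 in each direction, against 9.22% of all rows. The median was 0.03 over 15 genes, -0.09 over 14 without Gr21a, which was at or under 3 counts in both groups, and -0.00 over all rows.

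The difference between both knockdown effects was largest in size, among genes detected in each of the 4 groups, for Gr77a, at -2.01 on the log2 scale (SE 1.09, 95% interval -4.41 to 0.39, FDR 0.443 in edgeR's test). The median over Gr genes was -0.39 and that over all rows -0.01.

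By the count table's names the 2 controls carry different hairpins with no fly target. By those of the normalized table the libraries compared here are NTC IR-1 and dENL/AF9-IR. Gr63a had a log2 fold change of 0.73 in NTC IR-2 against NTC IR-1 (SE 0.310, 95% interval 0.05 to 1.41, FDR 0.116 in edgeR's test), and its libraries did not overlap, at 0.910 to 1.54 and 0.603 to 0.808 CPM. In dENL/AF9-IR it spanned 0.981 to 1.64 CPM and in dYEATS2-IR 0.589 to 0.805. The test over 4 groups gave Gr63a an FDR of 0.103 in edgeR's test, the lowest of the 15 rows, and the sum of Gr64d and Gr64e one of 0.0656.

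Gr21a had the opposite order. Its mean in NTC IR-1 was 4.09 times the level of 3 counts per library in NTC IR-2, where it was at 0 (FDR 0.0676 in edgeR's test, not called). Without NTC IR-1 replicate 1 that ratio was 2.51. Neither ratio includes the error of the NTC IR-1 mean, so they are not lower limits of the difference. NTC IR-1 replicate 3 was at 0 like the NTC IR-2 libraries, and without that library Gr21a was called (FDR 0.0215 in edgeR's test). For Gr64d the mean in NTC IR-2 was 5.13 times the level of 3 counts per library in NTC IR-1, and 2.22 times without NTC IR-2 replicate 3, with the same limit. For Gr64d and Gr64e summed the higher level in NTC IR-2 does not hold, and their log2 fold change was -0.36 (95% interval -1.13 to 0.41). Gr43a, Gr64e and Gr66a had lower values in NTC IR-2 with no overlap, which made 4 of 15 genes with Gr63a, against 33.5% of all rows. The margin was narrow for Gr66a, with a highest NTC IR-2 value of 0.366 CPM and a lowest NTC IR-1 value of 0.373. For Gr64e these values were 1.01 and 1.04, and for Gr43a 0.455 and 0.582. Gr64e summed with Gr64d did overlap, at 0.652 to 1.31 CPM in NTC IR-2 and 1.04 to 1.28 in NTC IR-1. The median over Gr genes was -0.25 and that over all rows -0.04.

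**Figure D5:**
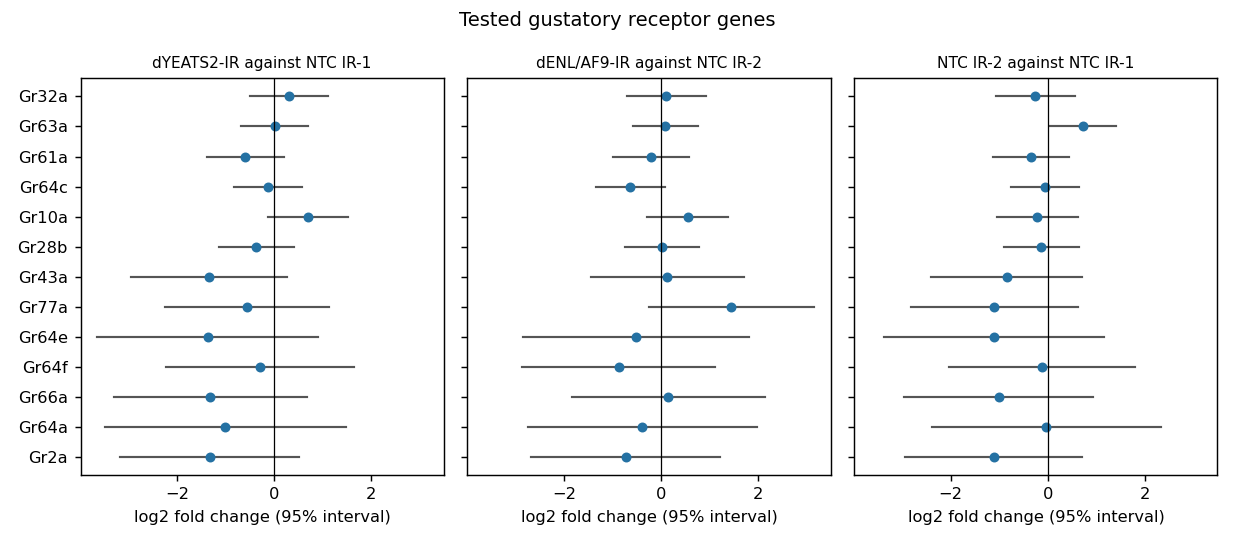
Log2 fold changes with 95% intervals of 13 tested Gr genes in 3 comparisons, from edgeR's quasi-likelihood fit. Gr21a and Gr64d, each at 0 counts in at least 1 whole group, are not drawn. In the right panel the interval of Gr63a, 0.05 to 1.41, lies above 0, and each other interval drawn includes 0.

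Markers of tissues and cell types of the head also differed between groups. Summed CPM of 11 antennal markers was 9.21 to 12.1 in NTC IR-1, 13.6 to 36.0 in dYEATS2-IR, 4.56 to 86.3 in NTC IR-2 and 12.4 to 52.7 in dENL/AF9-IR. The co-receptor gene Orco of the antenna had 2.19 ± 0.0339 CPM (SD, n = 3) for NTC IR-1 and 3.10 ± 1.17 in NTC IR-2. The antennal co-receptor Ir8a had 12 counts in all and Or22a 32, and neither was tested. Of the antennal markers 6 were tested, and Or67d alone was called between the controls, with a lower value in NTC IR-2, against 19.5% of all rows called. The other 5 were higher in NTC IR-2 without a call, and the median log2 fold change of the 6 was 1.39. Relative to NTC IR-1, all 6 were higher in dYEATS2-IR, with a median of 0.97 and 0 called. Summed CPM of the 7 neuronal markers was 3693 to 4260 in NTC IR-1 and 5565 to 6761 in NTC IR-2. Of these markers 5 of 7 were called higher in NTC IR-2, against 10.3% of all rows. All 7 fat body markers and 1 of 5 glial markers (alrm) were called lower in NTC IR-2, against 9.16% of all rows. Called higher were 2 of 7 photoreceptor markers (trpl and chp), against 10.3%. In dYEATS2-IR against NTC IR-1, 3 fat body markers (Yp1, Yp2 and Yp3) were called lower, against 2.35% of all rows. The part of these tissues in the Gr values was not tested.

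The list of other taste pathway genes held 36 symbols, of which 35 are in the table and 26 were tested. In dYEATS2-IR against NTC IR-1, 3 rose and 0 fell, against 2.42% and 2.35% of all rows, and the median log2 fold change was 0.31, with 17 of 26 above 0. They were trpl, a TRP channel (log2 fold change 1.34, SE 0.122, FDR 8.1e-05 in edgeR's test), Gprk2, a receptor kinase needed for normal taste responses (0.58, SE 0.0879, FDR 0.00482), and norpA, a phospholipase C (0.74, SE 0.163, FDR 0.0298). Between dENL/AF9-IR and NTC IR-2 the number called was 0 of 26, against 0% of all rows, with 8 above 0 and a median of -0.05, and the highest value among these 3 genes was that of Gprk2, at 0.08.

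Between the controls Ggamma1, a G protein subunit (0.67, SE 0.0879, FDR 0.00168 in edgeR's test), trpl (0.61) and norpA (0.82) had higher levels in NTC IR-2, and 0 were lower, against 10.3% and 9.16% of all rows. The effects of both knockdowns on trpl differed by 1.36 (SE 0.171, FDR 0.00304), the 1 call of the list in that test, against 0.434% of all rows higher and 0.498% lower. trpl and norpA are also genes of the photoreceptor cascade, and trpl is itself on the photoreceptor list. Of the other 6 photoreceptor markers, ninaC and chp were called higher in dYEATS2-IR, against 2.42% of all rows, and chp also between the controls, against 10.3%. The part of photoreceptor RNA in these calls was not tested. Channels and receptors of the list that are more confined to chemosensory cells were tested without a call, among them ppk23, ppk25, ppk29, Ir25a and Ir76b, as was Poxn, which specifies taste bristles, at 2.14 ± 0.423 CPM (SD, n = 3) for NTC IR-1 and 2.41 ± 0.570 in dYEATS2-IR.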

How the data were processed

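RNA-seq was done on 12 libraries of heads, prepared with a strand-specific TruSeq mRNA kit from RNA with an integrity number above 7, per the labels' protocols. The authors deposited raw counts (23793 rows by symbol, each naming a feature) and a normalized signal on the count scale, which equalled raw counts times 1 constant per column in 100% of rows, once the exchanged names were matched, and in at most 3.33% under its own names. That signal was used for this check only. FastQC 0.12.0, Trim Galore 0.6.5, HISAT2, SAMtools, UMI-tools, Picard and DESeq2, and the builds BDGP6 and dm6, are named in the submitters' processing notes. The counting program, its use of strand and its treatment of reads that fit several genes are not given in the sources used here, so rows with shared or antisense exons are uncertain. For NTC IR-2 replicates 1 and 2 the labels cite columns of other libraries, and columns were assigned by library name.

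Counts were analysed with edgeR 4.0.16 (R 4.3.3): filterByExpr by group, TMM, 1 quasi-likelihood fit over all 12 libraries with a mean per group and 8 residual degrees of freedom, Benjamini-Hochberg adjustment over 12661 rows, and calls at an FDR below 0.05. Depth was 30298251 to 54132559 counts per library, so that 1 count was 0.0189 to 0.0343 CPM. Each SE was obtained by dividing the absolute log2 fold change by the square root of F, and 95% intervals use the fit's degrees of freedom. Exon lengths, overlaps and coordinates (1-based) come from Ensembl release 115 of BDGP6.54, which may differ from the authors' annotation. The test was checked on simulated counts. Each Gr gene above background in a group, or called, was to be named with its values in each library, the rest by range, and of the taste pathway list the called genes; Gr21a, Gr43a, Gr64a, Gr64d, Gr64e, Gr64f, Gr66a, Gr2a and the taste pathway genes named without a call were added after their values were seen. The members, lists, background genes and rules were chosen with earlier results of these data known. Alternatives were DESeq2 1.42.0 (size factors and test), other filters, the replicate block, the other names, the other control, the 6 libraries compared and each library left out. Same-numbered libraries did not deviate together (correlations of -0.363 to 0.298, 3 of 18 above 0.1), so numbers were not taken to pair libraries.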

Additional observations from a re-analysis of the deposited data

How the results depend on the processing

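At these depths 45 of 60 Gr genes had too few counts to be tested. Whether they are silent in heads or present below this reach was not tested. The count of 7 genes above background was 9 with the 75th percentile, 9 without division by length (5 of them in dYEATS2-IR, where the rule gave 0), 7 without TMM factors, 4 with the 95th percentile, 14 with more than 3 counts as the sole rule and 15 by filterByExpr. Leaving out 1 replicate number gave 5 to 12. The count of 0 called Gr genes held in each of the 5 tests with the replicate block (0 calls) and under the other alternatives, except for 1 call of Gr21a between the controls with DESeq2's test, and without NTC IR-1 replicate 3 between the controls and over the 4 groups (FDR 0.0481), so that leaving out 1 library gave 0 to 1 calls in both. Without NTC IR-1 replicate 2 Gr21a did not pass the filter.

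For 10 Gr genes and 4 comparisons, 787 alternative log2 fold changes were computed, of which 728 kept their sign and side of the threshold, 2 gained a call and 57 changed sign, none of the latter called (FDR of at least 0.153). A cause was not tested, except that the exchanged names and the other control compare other libraries by construction. Fitted values of Gr21a against groups at 0 are no bounds.

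Under the names of the normalized table, dYEATS2-IR against NTC IR-1 gave 0.027 for Gr28b, 1.46 for Gr77a, 3.86 for Gr21a and 0.13 for Gr43a. For dENL/AF9-IR and its control it gave -0.32 for Gr32a, -0.018 for Gr63a, 0.59 for Gr61a, 0.12 for Gr64c, -0.71 for Gr10a and 1.36 for Gr64e. For NTC IR-2 against NTC IR-1 it gave 0.57 for Gr32a, -0.72 for Gr63a, 0.92 for Gr10a, 0.55 for Gr77a and 5.62 for Gr21a. The difference between both effects became 0.12 for Gr63a, -0.75 for Gr64c, 0.90 for Gr77a and 2.65 for Gr21a. With the other control, dYEATS2-IR gave -0.72 for Gr63a, 0.55 for Gr77a and 5.62 for Gr21a, and dENL/AF9-IR gave -0.14 for Gr32a, -0.10 for Gr28b, -2.97 for Gr21a and -0.71 for Gr43a. With no filter beyond 1 count, Gr63a was at -0.0055 in dYEATS2-IR.

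Leaving out 1 library, values in dYEATS2-IR against NTC IR-1 ran from -0.029 to 0.52 for Gr32a, -0.10 to 0.15 for Gr63a, -0.33 to 0.030 for Gr64c and -0.70 to 0.0046 for Gr28b. For dENL/AF9-IR and its control they ran from -0.067 to 0.28 for Gr32a, -0.11 to 0.31 for Gr63a, -0.39 to 0.026 for Gr61a, -0.093 to 0.20 for Gr28b, -0.10 to 0.43 for Gr43a and -1.34 to 0.32 for Gr64e. Between the controls they ran from -0.66 to 0.037 for Gr61a, -0.25 to 0.11 for Gr64c and -0.46 to 0.24 for Gr28b. The difference between both effects ran from -0.15 to 0.41 for Gr32a, -0.29 to 0.13 for Gr63a and -0.16 to 0.63 for Gr10a.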
